A study of Mus musculus with 13 samples.

Results

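The mouse locus described here lies on chromosome 4 (build GRCm38, mm10) and holds Cdkn2a, Cdkn2b, Mtap and Dmrta1. Its peaks were taken from the H3K27ac peak lists of 9 melanoma cell lines, keeping those that overlapped one of the 4 genes or lay within 500 kb of Cdkn2a. These were 342 of 256200 peaks, between 25 and 52 in a list, and they merged into 65 elements. The locus was chosen on measured values, namely which of these lists called a peak at Cdkn2a, so its calls, widths and gaps are given as a description and were not tested.

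Cdkn2a encodes a pair of unrelated tumour suppressors from different first exons that are spliced to the same exons 2 and 3. p16Ink4a, from exon 1α, blocks the kinases CDK4 and CDK6 and so keeps the retinoblastoma protein active, and p19Arf, from exon 1β further upstream, inhibits MDM2 and so stabilises p53. Cdkn2b encodes p15Ink4b, a second inhibitor of CDK4 and CDK6. Mtap encodes methylthioadenosine phosphorylase of the methionine salvage pathway, and Dmrta1 a transcription factor with a DM domain. In melanoma the CDKN2A region is a well-known site of loss, germline or somatic, and H3K27ac marks active promoters and enhancers.

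The lines came from tumours of mice backcrossed to C57BL/6J. All mice carried the Tyr::NRAS Q61K transgene, which is driven by the tyrosinase promoter in the melanocyte lineage, 1 inactivated allele of Cdkn2a (Cdkn2a +/-) and floxed Cdh1 (Cdh1 F/F), the gene of E-cadherin. Ecad lines had no Cre, and ∆Ecad lines also carried Tyr::CreA, which deletes floxed Cdh1 in melanocytes. The lists were Ma_1007 and Ma_1181 (male Ecad), Ma_1014 and Ma_1039 (female Ecad), Ma_1062 and Ma_1456 (male ∆Ecad), and Ma_1057, Ma_1064 and Ma_1069 (female ∆Ecad). Each line gave 1 list, so the lines were the replicates and no value within a line had an error. The inactivated allele, made by removing the exons that p16Ink4a and p19Arf share, was present in the mice of both genotypes. The remaining allele in each line was not examined here. The paper reports exome sequencing of its mouse melanoma cell lines. It also tabulates the genetic status and expression of key genes in its lines. Neither source was used here.

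The lists held 20741 to 41663 peaks, with Ma_1069 the shortest and Ma_1007 the longest. The paper gives a target depth, but the depth that each library reached is unknown. A missing peak means only that no peak passed the threshold. The input libraries were not analysed here, so an absent mark and absent DNA cannot be told apart at a missing peak or stretch. All 6 melanocyte-lineage markers (Sox10, Mitf, Dct, Tyr, Pmel and Mlana) had a promoter peak, that is a peak within 1 kb of an annotated start, in 9 of 9 lists. Of the 12 keratinocyte, fibroblast, immune and endothelial markers, only Pdgfra had one, in Ma_1007. Over all 21911 protein-coding genes, 21.1% had a promoter peak in all 9 lists and 47.1% in none. No list called the promoter of Cdh1, the targeted gene, and each list had 1 to 3 peaks inside it, so these lists do not check the deletion.

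The promoter sequences of the locus are shown first, because the calls of the 9 lists are compared at these starts. Each line gives the 250 bases before an annotated start, from the RefSeq copy of GRCm38.p6 and read 5′ to 3′ on the strand of the gene. The starts are those of p16Ink4a (chr4:89282193-89282442, minus strand), p19Arf (chr4:89294654-89294903, minus), Cdkn2b (chr4:89311040-89311289, minus), Mtap (chr4:89136872-89137121, plus) and Dmrta1 (chr4:89687948-89688197, plus). Capitals mark matches, on either strand, to 7 words: GGGCGG (a GC box), CCGGAA (an ETS core), CACGTG (an E-box), CATGTG (an M-box core), TGANTCA (AP-1), and TTTGGCGC and TTTCCCGC (E2F).
p16Ink4a: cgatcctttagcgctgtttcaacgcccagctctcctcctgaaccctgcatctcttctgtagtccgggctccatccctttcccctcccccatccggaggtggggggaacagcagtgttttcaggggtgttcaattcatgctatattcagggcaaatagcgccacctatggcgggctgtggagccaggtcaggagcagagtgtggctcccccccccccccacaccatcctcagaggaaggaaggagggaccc
p19Arf: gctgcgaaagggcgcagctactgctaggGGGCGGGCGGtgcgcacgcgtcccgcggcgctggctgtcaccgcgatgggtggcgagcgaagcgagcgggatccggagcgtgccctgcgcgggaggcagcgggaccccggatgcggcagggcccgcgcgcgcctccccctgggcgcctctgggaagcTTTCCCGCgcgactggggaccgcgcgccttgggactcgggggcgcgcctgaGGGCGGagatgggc
Cdkn2b: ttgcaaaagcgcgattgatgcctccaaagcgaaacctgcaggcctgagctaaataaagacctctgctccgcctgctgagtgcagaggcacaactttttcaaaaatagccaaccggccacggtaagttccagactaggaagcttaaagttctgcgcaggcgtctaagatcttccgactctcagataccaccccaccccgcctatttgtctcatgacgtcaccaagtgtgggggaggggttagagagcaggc
Mtap: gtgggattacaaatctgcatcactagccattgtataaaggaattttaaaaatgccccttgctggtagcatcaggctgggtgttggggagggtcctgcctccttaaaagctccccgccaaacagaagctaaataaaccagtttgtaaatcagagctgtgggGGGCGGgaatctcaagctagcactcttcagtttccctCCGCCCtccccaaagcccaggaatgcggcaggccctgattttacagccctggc
Dmrta1: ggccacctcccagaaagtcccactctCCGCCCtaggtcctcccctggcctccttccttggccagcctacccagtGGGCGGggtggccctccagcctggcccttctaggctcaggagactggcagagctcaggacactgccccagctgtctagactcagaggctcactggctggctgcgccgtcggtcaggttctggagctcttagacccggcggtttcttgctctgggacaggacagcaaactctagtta

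The p19Arf promoter stood apart in base composition. It held 38 CpG dinucleotides in 250 bases, and 98.4% of the 32851 RefSeq promoters of the same length held as many or fewer. The Cdkn2b promoter held 11, those of p16Ink4a and Dmrta1 held 7 each and that of Mtap held 4, against a median of 6. The p19Arf window had 3 GC boxes, 2 of them overlapping, and 1 TTTCCCGC. A GC box was found in 32.7% of all promoters and TTTCCCGC in 0.895%. Mtap and Dmrta1 had 2 GC boxes each, and none of the 7 words was found in the windows of p16Ink4a and Cdkn2b. These matches describe letters and not bound sites.

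Cdkn2a (chr4:89274471-89294653, minus strand) and Cdkn2b (chr4:89306299-89311039, minus) had a promoter peak in 6 of 9 lists, and Mtap (chr4:89137122-89181081, plus) and Dmrta1 (chr4:89679436-89694772, plus) in 9 of 9. The lists without one at Cdkn2a and Cdkn2b were the same for both genes: Ma_1007, Ma_1062 and Ma_1069. They were 1 of 2 male Ecad lines, 1 of 2 male ∆Ecad lines and 1 of 3 female ∆Ecad lines, and both female Ecad lines called both genes. A promoter called in some lists and not in others was common, at 31.9% of 21911 protein-coding genes. Outside the locus, 2 genes, Rnf135 and Nes, were missing from exactly these 3 lists. The locus was chosen on this pattern, and genes missing from other sets of 3 lists were not counted. Whether the pattern is rare was therefore not tested. By genotype, 3 of 5 ∆Ecad and 3 of 4 Ecad lists called Cdkn2a, and by sex 4 of 5 female and 2 of 4 male lists did.

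**Figure D1:**
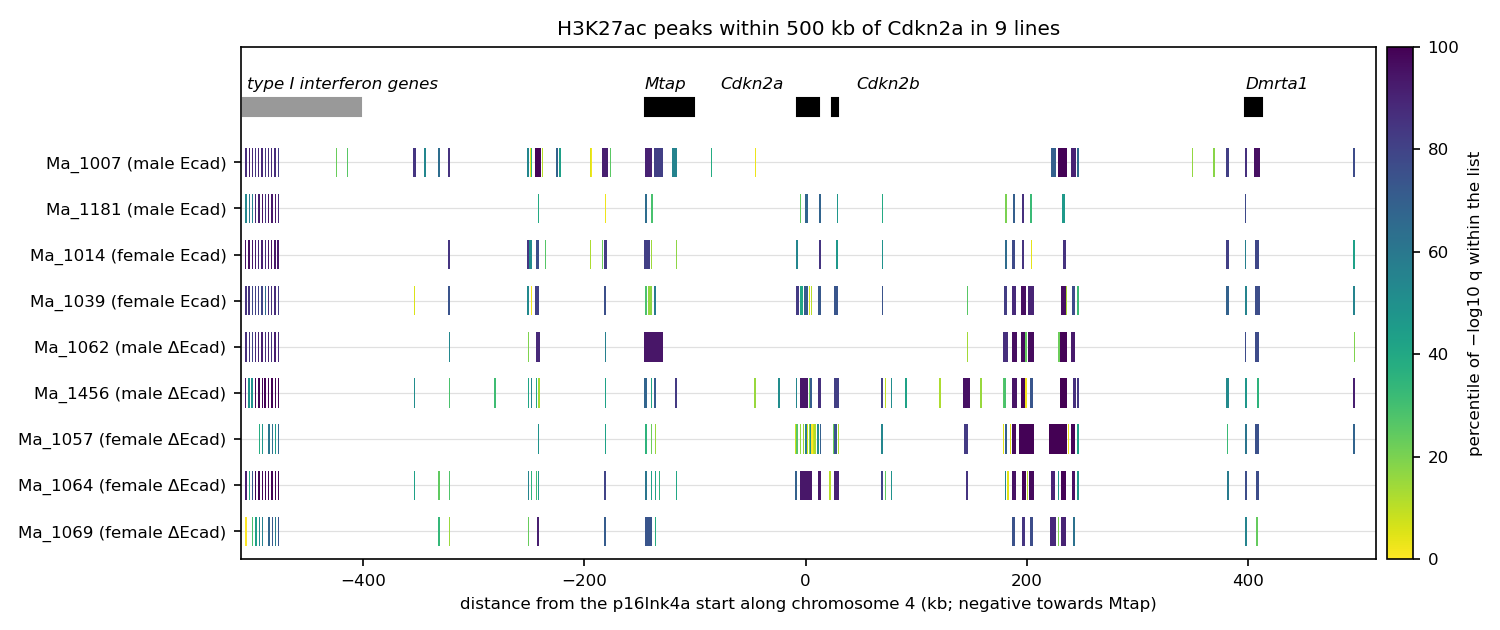
H3K27ac peaks of the 9 lists (rows) by distance in kb from the p16Ink4a start, coloured by the percentile of −log10 q within each list, with genes as bars at the top and bars narrower than the drawing limit widened. Ma_1007, Ma_1062 and Ma_1069 have no peak over Cdkn2a or Cdkn2b, while all 9 lists have peaks near Mtap and in the element centred 228 kb to the right.

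The strength of a peak is given by its percentile, the share of peaks in the same list with a −log10 q (the caller's significance) at or below its own. At the p16Ink4a start, the peak was at percentile 67.7 in Ma_1181, 71.8 in Ma_1039, 94.0 in Ma_1456, 57.2 in Ma_1057 and 93.8 in Ma_1064, and the other 4 lists had none. Ma_1014 was therefore the single list with a peak at p19Arf and none at p16Ink4a. The p16Ink4a peaks spread widely in width, from 1985 bp in Ma_1057 through 2667 bp in Ma_1181, 3975 bp in Ma_1039 and 7506 bp in Ma_1456 to 10757 bp in Ma_1064.

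At the p19Arf start, the percentile was 68.0 in Ma_1181, 84.7 in Ma_1014, 72.7 in Ma_1039, 86.1 in Ma_1456, 69.9 in Ma_1057 and 94.1 in Ma_1064. These peaks were more alike in width than those at p16Ink4a, at 927 to 3037 bp. In Ma_1057 the start itself fell in a gap of 0.305 kb between 2 peaks. At the Cdkn2b start, the percentile was 46.9 in Ma_1181, 46.6 in Ma_1014, 73.7 in Ma_1039, 81.5 in Ma_1456, 74.2 in Ma_1057 and 90.7 in Ma_1064. These peaks were 1396 to 4344 bp wide, and in Ma_1057 the Cdkn2b start itself fell in a gap of 0.249 kb. Ma_1181 and Ma_1014 were lowest here, and Ma_1064 was highest at both p19Arf and Cdkn2b. Over the 9 lists, with 0 for no peak, the percentiles of Cdkn2a and Cdkn2b had a Pearson r of 0.94. The 3 shared zeros and the list lengths enter this value.

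Mtap had a start peak in every list, with a wide range of strength. Its percentile was 90.7 in Ma_1007, 64.8 in Ma_1181, 81.4 in Ma_1014, 28.3 in Ma_1039, 94.5 in Ma_1062, 67.6 in Ma_1456, 35.4 in Ma_1057, 60.6 in Ma_1064 and 73.6 in Ma_1069. The 2 highest values were in Ma_1062 and Ma_1007, which lack peaks at Cdkn2a, and Ma_1069 was the fourth highest. In Ma_1057 and Ma_1069 the peak began downstream of the Mtap start, which itself fell in a gap of 36.2 kb and 35.4 kb. The Mtap start peak was 16555 bp wide in Ma_1062, 7031 bp in Ma_1007 and 6020 bp in Ma_1069, against 795 to 5386 bp in the others. Since the locus was chosen on the missing Cdkn2a peaks, this order is a description. In lists cut to equal length the Mtap call of Ma_1039 was lost, leaving 8 lists.

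Dmrta1 has 2 annotated starts. The upstream one (Dmrta1-202) had a peak in 9 of 9 lists, at percentiles from 47.1 in Ma_1456 through a median of 61.3 to 86.3 in Ma_1007, and 653 to 2188 bp wide. The main start (Dmrta1-201) had one in 7 of 9, at 95.8 in Ma_1007, 78.6 in Ma_1014, 76.5 in Ma_1039, 77.3 in Ma_1062, 75.2 in Ma_1057, 76.9 in Ma_1064 and 23.6 in Ma_1069. In Ma_1064 and Ma_1069 that peak began downstream of the start and did not cover it. The missing lists were Ma_1181 and Ma_1456. Ma_1181 had no peak for 317 kb beyond the upstream start, and Ma_1456 did call the element over the gene body.

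**Figure D2:**
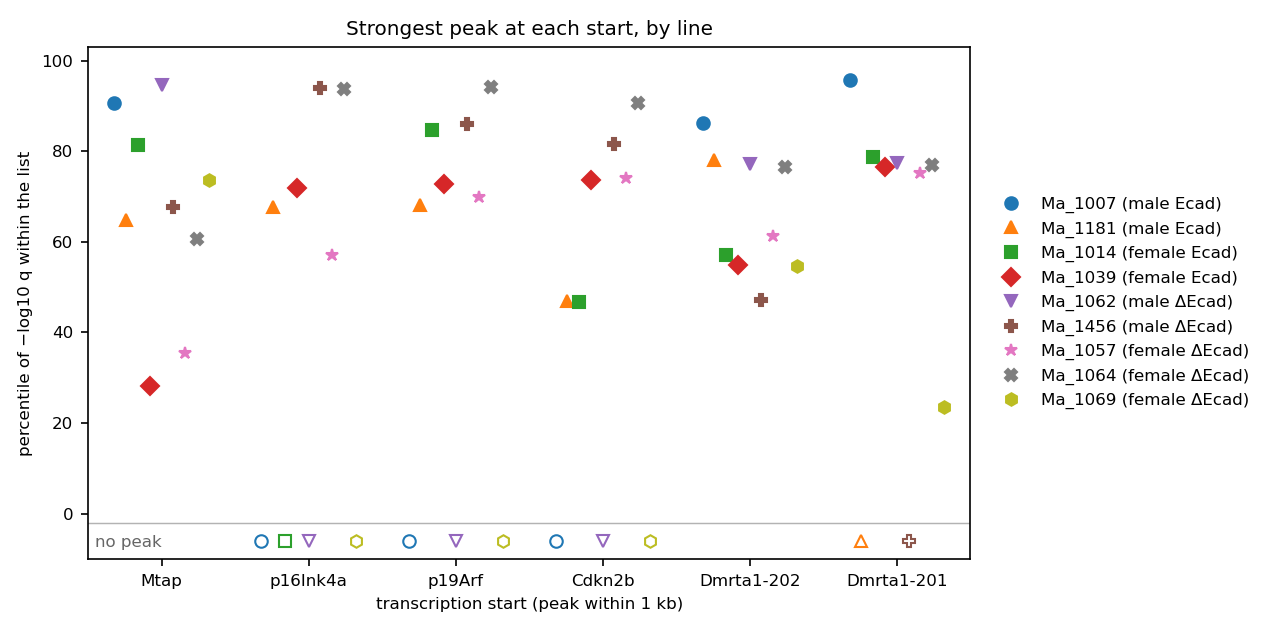
Percentile of −log10 q within the list (y axis) of the strongest peak within 1 kb of each of 6 starts (x axis), 1 symbol per line, with hollow symbols below 0 where there was no peak. Hollow symbols of Ma_1007, Ma_1062 and Ma_1069 stand at p16Ink4a, p19Arf and Cdkn2b, and all 9 lines have filled symbols at Mtap and Dmrta1-202.

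The missing peaks at Cdkn2a belonged to long stretches without any peak. The stretch ran over 268 kb in Ma_1007 (chr4:89236441-89504198), 275 kb in Ma_1062 (chr4:89153005-89427613) and 322 kb in Ma_1069 (chr4:89146489-89468813). They held 22 elements of the window in Ma_1007, 18 in Ma_1062 and 22 in Ma_1069. The counts that follow take all gaps between peaks on chromosome 4, also those where no other list has peaks. In Ma_1007, 102 of 2787 gaps (3.66%) were at least as long, in Ma_1062 131 of 1549 (8.46%) and in Ma_1069 116 of 1270 (9.13%). The 3 stretches had 191 kb in common (chr4:89236441-89427613), with 15 elements inside it. The other 6 lists called 4 of these in Ma_1181 and in Ma_1014, 5 in Ma_1039, 11 in Ma_1456 and 8 each in Ma_1057 and Ma_1064.

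The ends of the stretches differed between the 3 lines. On the Mtap side, Ma_1062 ended at its 16555 bp Mtap peak (percentile 94.5), Ma_1069 at a 731 bp peak inside Mtap (percentile 37.6), and Ma_1007 at a 281 bp peak at percentile 2.87 in an exon of Gm12606. The left end was 58.2 kb from the p19Arf start in Ma_1007, 142 kb in Ma_1062 and 148 kb in Ma_1069. The end in Ma_1007 rested on that weak peak. It moved to 97.0 kb with peaks of at least 500 bp or a −log10 q of at least 10, and to 129 kb in lists of equal length. On the Dmrta1 side, the next peak was 779 bp wide at percentile 13.8 in Ma_1062, 2457 bp at percentile 74.9 in Ma_1069 and 4329 bp at percentile 69.5 in Ma_1007. Thus neither end was shared, and Ma_1007 reached furthest towards Dmrta1.

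The 3 stretches had in common several elements that the other lists shared. Elements at the p19Arf start (chr4:89292164-89296311), at the Cdkn2b start (chr4:89307494-89312021) and 1 between genes (chr4:89350609-89352315) were each called in all 6 other lists. Ma_1007 also lacked 3 strong elements between genes at 188 to 204 kb from the p16Ink4a start, which the 8 other lists all called at median percentiles of 91.4, 96.7 and 83.3. The next element (chr4:89501696-89518778) was present in all 9 lists at a median percentile of 99.0, the highest of the 65. Of the elements in Gm12610, Ma_1007 and Ma_1069 alone lacked 1 (chr4:89460304-89465221), and another (chr4:89424724-89430436) was missing in both of these and in Ma_1181 and Ma_1014. Ma_1062 called both of these elements.

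For each of these patterns, the element between genes with the highest median percentile is shown, read on the plus strand over 300 bases around the median summit. The first (chr4:89351288-89351587) was called in the 6 lists with Cdkn2a peaks, and the second (chr4:89479304-89479603) in all lists but Ma_1007. Capitals mark the span between the lowest and the highest summit, 144 bp apart over 6 lists for the first and 167 bp apart over 8 lists for the second. Neither window held any of the 7 words, and they held 5 and 2 CpG dinucleotides, against a median of 4 around all chromosome 4 summits of these lists.
Element upstream of Cdkn2b: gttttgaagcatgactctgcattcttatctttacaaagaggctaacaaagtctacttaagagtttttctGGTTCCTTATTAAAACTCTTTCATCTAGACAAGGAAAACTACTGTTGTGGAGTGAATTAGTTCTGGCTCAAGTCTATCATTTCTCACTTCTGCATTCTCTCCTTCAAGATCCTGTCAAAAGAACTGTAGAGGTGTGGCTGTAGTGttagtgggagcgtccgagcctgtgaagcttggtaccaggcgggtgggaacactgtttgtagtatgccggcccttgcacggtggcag
Element missing in Ma_1007: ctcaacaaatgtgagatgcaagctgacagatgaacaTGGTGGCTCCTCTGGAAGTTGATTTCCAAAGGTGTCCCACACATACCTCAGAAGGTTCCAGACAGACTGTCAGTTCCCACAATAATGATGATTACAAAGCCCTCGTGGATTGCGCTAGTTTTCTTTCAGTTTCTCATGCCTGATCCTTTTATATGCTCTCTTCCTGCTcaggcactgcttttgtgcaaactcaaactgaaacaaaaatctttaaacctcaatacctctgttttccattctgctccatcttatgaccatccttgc

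To set the gaps against the length of each list, regions of the whole genome called in at least 5 of the other 8 lists were put in order, and those a list lacked were counted. Ma_1007 called 22 of 32 such regions in the window, against 96.0% genome-wide. The share was 21 of 34 against 59.7% in Ma_1069 and 25 of 33 against 81.2% in Ma_1062. In Ma_1181 it was 23 of 33 against 79.6% and in Ma_1057 22 of 30 against 74.8%, although both lists called Cdkn2a. The remaining lists called 28 of 32 against 86.9% (Ma_1014), 29 of 29 against 91.0% (Ma_1039), 29 of 29 against 81.7% (Ma_1456) and 28 of 29 against 80.9% (Ma_1064). As shares, 68.8% of these regions were called in the window of Ma_1007, well under its background, 75.8% in Ma_1062, and 61.8% in Ma_1069, near its background.

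The run of such regions missing in a row at Cdkn2a was 10 regions long in Ma_1007, the longest of the 640 runs in that list, over 216 kb. In Ma_1069 it was 7 regions, and 81 of 4276 runs (1.89%) were at least as long. In Ma_1062 it was 5 regions, and 28 of 2698 (1.04%) were. The longest run elsewhere was 20 regions in Ma_1069, on chromosome 2, and 9 in Ma_1062, on chromosome 12. Ma_1181 and Ma_1014 lacked 1 region each at Cdkn2a, and the other 4 lists lacked none. These ranks describe a locus that was chosen for its gap. With regions called in at least 7 of the other 8 lists, the run was 0 in these 3 lists, since the elements at Cdkn2a were called in at most 6 lists.

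**Figure D3:**
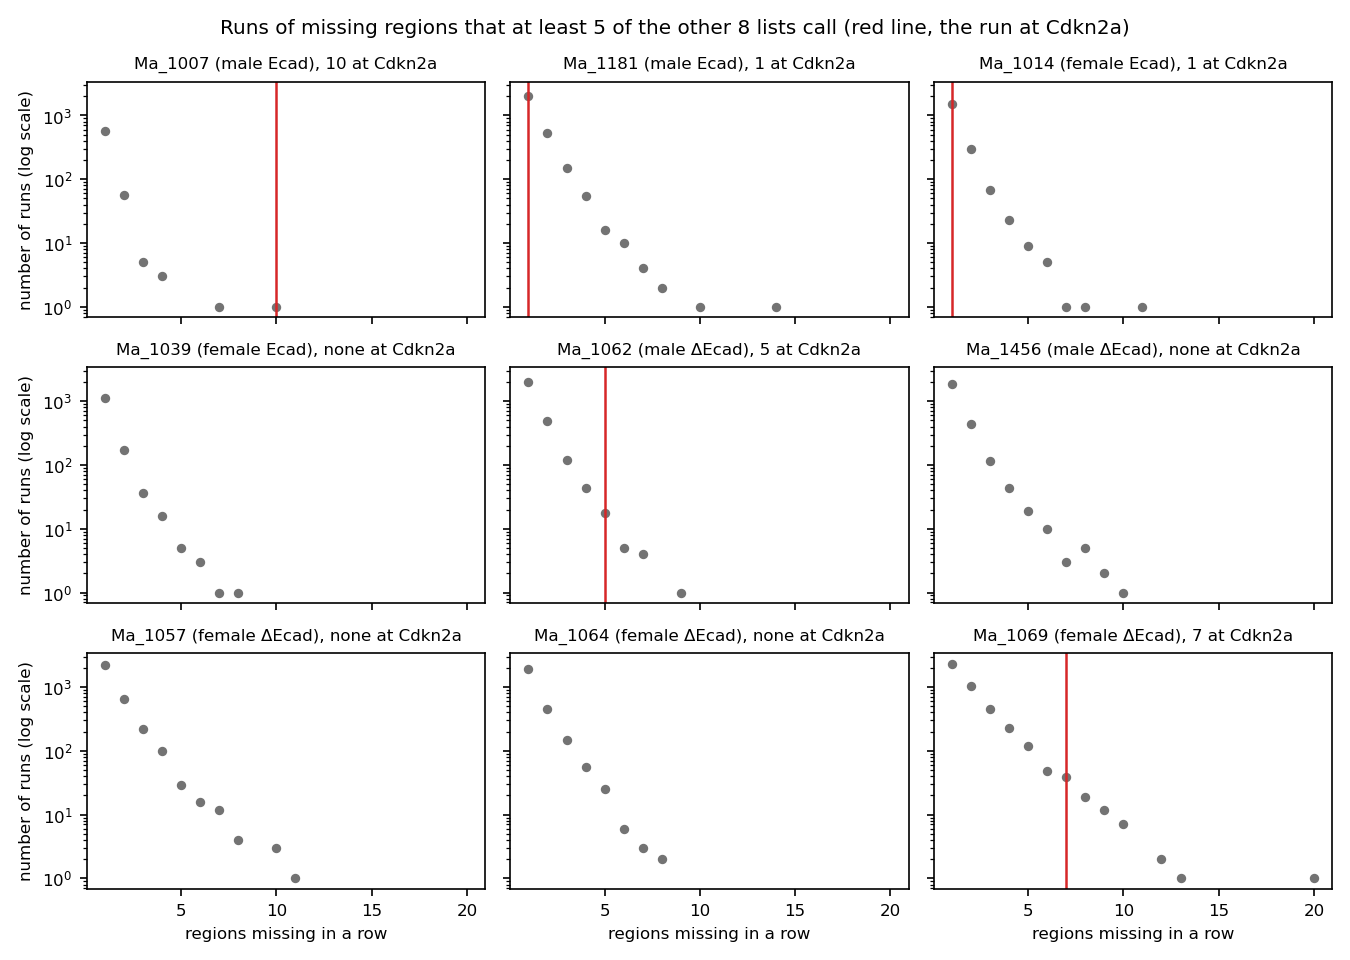
Number of runs (y axis, log scale) by the number of regions missing in a row (x axis) for each of the 9 lists, with the run at Cdkn2a as a red line. The red line stands at 10 in Ma_1007, on the last point of that list, at 7 in Ma_1069 and at 5 in Ma_1062, inside the range of those lists.

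Within Cdkn2a, the exons that p16Ink4a and p19Arf share were rarely under a peak, also in lists with strong peaks beside them. Exon 2 (chr4:89276645-89276985) was covered in Ma_1039 alone, over 231 of its 341 bp. Exon 3 (chr4:89274471-89274774) was covered in full, 304 of 304 bp, in Ma_1014 and Ma_1039, both female Ecad lines. In Ma_1456, Ma_1057 and Ma_1064, all ∆Ecad lines, peaks lay on both sides. The gap between them held both exons and was 2.53, 2.73 and 2.55 kb long. The Ecad line Ma_1181 also had neither exon under a peak, in a gap of 134 kb, and exon 2 of Ma_1014 lay in a gap of 18.9 kb. Exon 2 was thus uncovered in lines of both genotypes, and a difference by genotype was not tested.

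The edges of the gap over exons 2 and 3 lay close to the ends of the exons in Ma_1456, Ma_1057 and Ma_1064. Upstream of exon 2, on the exon 1α side, the nearest peak edge was 6 bp away in Ma_1456 and 9 bp in Ma_1064. It was 61 bp away in Ma_1181 and 102 bp in Ma_1057. Downstream of exon 3, the nearest peak edge was 11 bp away in Ma_1456, 31 bp in Ma_1064 and 117 bp in Ma_1057. Ma_1181 had no peak there for 131 kb. Of 25592 regions called in at least 4 lists, 32.1% had start edges of 4 lists within 96 bp, the spread of the edges upstream of exon 2. Any 4 of the lists could count, and distance to an exon end was not measured, so the share says nothing on the exon ends. Exons 2 and 3, which lie in this gap, are the exons removed from the inactivated Cdkn2a allele, given as background. The ends of that deletion were not examined here, and the part of that allele in the gap was not tested.

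The boundary is printed because the edges of 4 peaks fall in it. The line gives 150 bases (chr4:89276956-89277105, minus strand, GRCm38.p6), 5′ to 3′ along Cdkn2a, with 120 bases of the intron before exon 2 in lower case and the first 30 bases of exon 2 in capitals.
Cdkn2a intron 1 and exon 2: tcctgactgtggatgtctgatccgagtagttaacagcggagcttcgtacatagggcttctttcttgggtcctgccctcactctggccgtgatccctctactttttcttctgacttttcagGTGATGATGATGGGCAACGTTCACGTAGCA

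**Figure D4:**
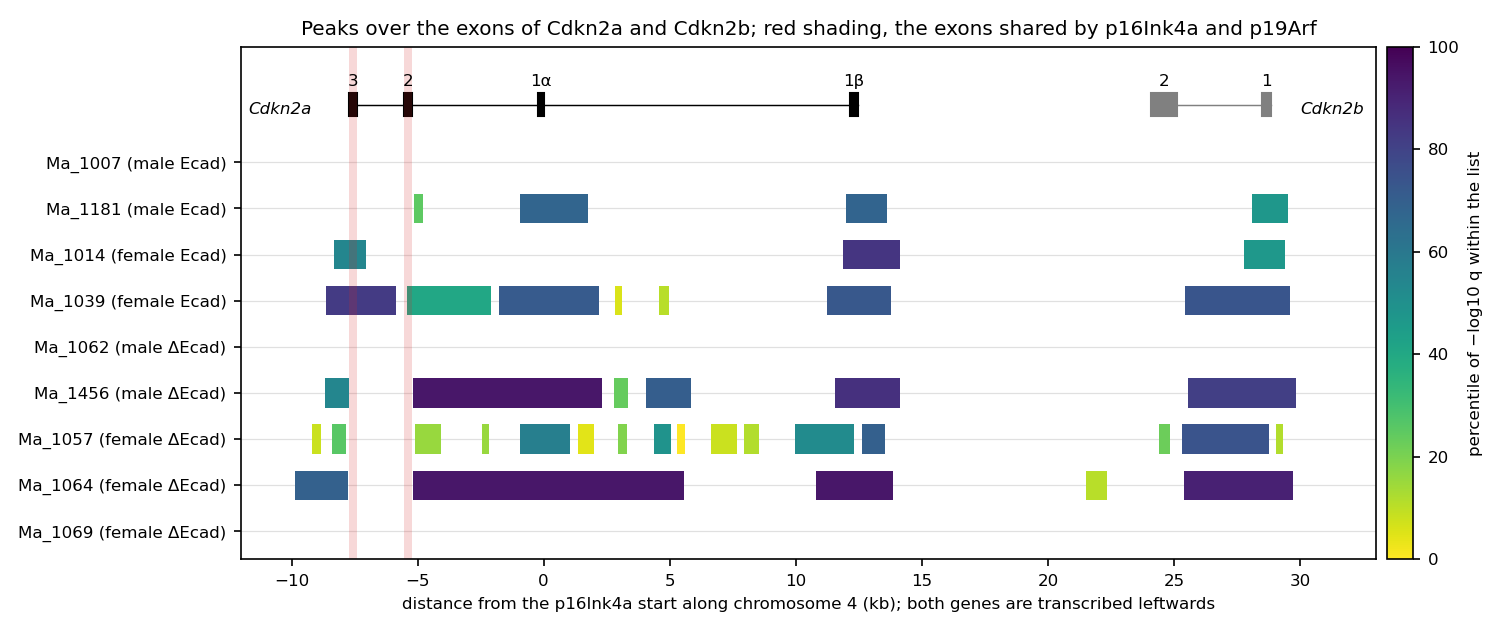
Peaks of the 9 lists (rows) around Cdkn2a and Cdkn2b by distance in kb from the p16Ink4a start, coloured by the percentile of −log10 q, with exons at the top and the shared exons 2 and 3 of Cdkn2a in red shading. Peaks of Ma_1456, Ma_1057 and Ma_1064 stop on both sides of the shaded exons, and peaks of Ma_1014 and Ma_1039 cross exon 3.

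The length covered by peaks showed how far the lines that called the genes differed. From the end of Mtap to 5 kb beyond Cdkn2b, peaks covered 21.1 kb in Ma_1064, 19.7 kb in Ma_1456, 17.5 kb in Ma_1039, 15.3 kb in Ma_1057, 6.07 kb in Ma_1181 and 5.14 kb in Ma_1014. They covered 1.23 kb in Ma_1007, all of it between Mtap and the stretch, and nothing in Ma_1062 and Ma_1069. Over Mtap, covered length was 19.6 kb in Ma_1007 and 16.6 kb in Ma_1062, against 2.16 to 7.35 kb in the 7 other lists. In Ma_1057 the coverage over Cdkn2a came from many short peaks, while Ma_1064 had 1 peak from just upstream of exon 2 to beyond exon 1α.

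Elsewhere in the window, all 9 lists called 11 of the 65 elements, and 24 elements were called in 1 list. Between the interferon genes and Mtap, lists differed widely, with 14 of 16 elements in Ma_1007, 2 each in Ma_1181 and Ma_1057, and 4 to 7 in the others. Between Cdkn2b and Dmrta1, lists called 5 (Ma_1069) to 16 (Ma_1456) of 20 elements. At the edge of the window, the last element inside the limit on the interferon side was called in 8 lists (median percentile 87.2), as was the first outside it, 500.5 kb from Cdkn2a (89.5). Beyond Dmrta1, the last one inside was called in 6 lists (61.4) and the first outside, 581 kb away, in 1.

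The far end of the window holds type I interferon genes, antiviral cytokines. Ifnz and 11 like-named genes beside it in the window (Gm13290, Gm13289, Gm13272, Gm13276, Gm13277, Gm13278, Gm13275, Gm13279, Gm13285, Gm13287 and Gm13288) had a promoter peak in 7 to 9 lists each. Ifna7, Ifna11, Ifna6, Ifna5, Ifna4, Ifna1 and Ifne had none in any list. The first set belongs to an array of 14 such genes that runs past the limit of the window. Peaks over the array stood 2911 to 2956 bp apart at the median, and there were 14 or 15 of them in 7 lists, 11 in Ma_1069 and 6 in Ma_1057. The genes are tandem copies, whose reads may be hard to tell apart, so each single call is uncertain.

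Other genes of the same pathways were taken from 4 lists of 34 genes. All 34 had a promoter peak in at least 1 list and 19 in all 9. Of all 21911 protein-coding genes, 21.1% were called in all 9 lists and 47.1% in none, and the counts of each list below stand beside the same 21.1%. All 5 genes of the ARF-p53 axis were called in every list: Mdm2, whose product p19Arf inhibits, Mdm4, Trp53 (p53), its target Cdkn1a (p21) and Npm1, a nucleolar partner of p19Arf. Cdkn1a varied in strength, from percentile 34.3 in Ma_1039 to 93.5 in Ma_1181. Trp53 lay at 71.3 (Ma_1062) to 97.2 (Ma_1181).

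Of the 13 genes of the CDK4/6-RB axis, 6 were called in all lists: Cdk4, the D-type cyclins Ccnd1 and Ccnd2, Rb1, E2f3 and the CDK inhibitor Cdkn2c. Ccnd1 ranked high throughout, at percentiles of 78.8 (Ma_1069) to 99.5 (Ma_1007). Cdkn2d, which encodes the CDK inhibitor p19Ink4d, was missing in Ma_1069 alone and lay at 0.878 in Ma_1057, against 65.3 to 93.2 in the 7 others. Ccnd3 was also missing in Ma_1069, Rbl1 in Ma_1057 and Ma_1069, Rbl2 in Ma_1064 and E2f1 in Ma_1062. Cdk6 was called in 5 lists, among them Ma_1062 and Ma_1069 but not Ma_1007, and E2f2 in 3 Ecad lists.

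Among 7 Polycomb and demethylase genes, which are known to repress or relieve the locus, Bmi1, Rnf2 and Ezh2 were called in all lists. Kdm6b, an H3K27 demethylase, was called in 8 lists at percentiles of 94.4 and above, and was missing in Ma_1062. Ring1 was missing in Ma_1069, Cbx7 was called in 3 lists and Cbx8 in 5. Of 9 genes of methionine salvage or linked to MTAP, Mri1, Apip, Enoph1, Adi1 and Mat2a were called in all lists. Prmt5, the methyltransferase that methylthioadenosine inhibits, was called in 6 lists and was missing in Ma_1014, Ma_1039 and Ma_1069. The polyamine genes Srm, Sms and Amd1 were called in 5, 4 and 7.

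**Figure D5:**
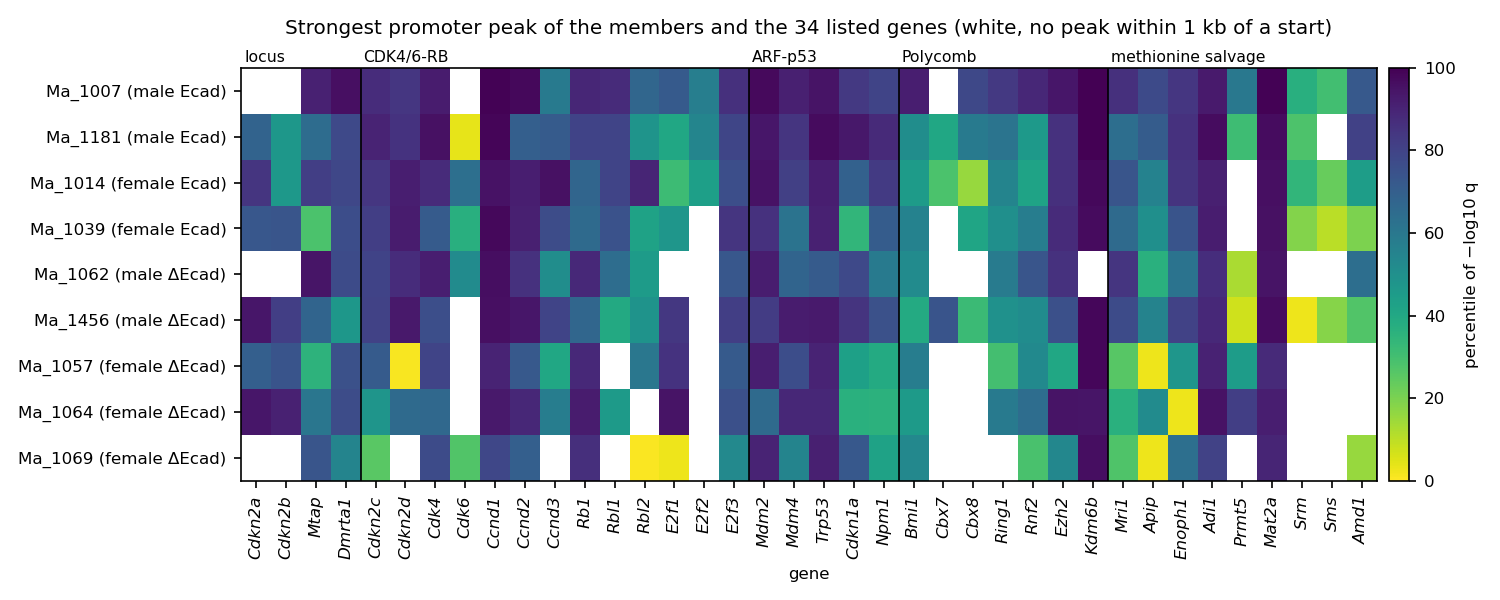
Percentile of −log10 q (colour) of the strongest promoter peak of the 4 locus genes and the 34 listed genes (columns) in the 9 lists (rows), with white for no peak within 1 kb of a start. The ARF-p53 block is filled in all 9 rows, and Ma_1069 has the most white cells among the listed genes, with 24 of 34 called.

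Promoter calls of all 6979 genes called in some lists only were compared between groups by Fisher's exact test, two-sided. For ∆Ecad (5 lists) against Ecad (4 lists), 661 genes (9.47%) had an unadjusted p under 0.05, for female (5) against male (4) 356 (5.10%), and for female ∆Ecad (3) against the other 6 lists 980 (14.0%). None had a Benjamini-Hochberg adjusted p under 0.05 in any of the 3, and the smallest were 0.410, 0.792 and 0.155. The smallest p these group sizes allow were 0.00794, 0.00794 and 0.0119. Most of the genes were called less often in the first group, 655 of 661, 350 of 356 and 957 of 980. The 4 Ecad lists held 25757 to 41663 peaks and the 5 ∆Ecad lists 20741 to 30340, and with lists cut to equal length the counts were 492, 362 and 753.

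Of the 34 pathway genes, 15 could be tested, and 3 had a Fisher's exact p of 0.0476 by genotype. Cbx8 was called in 1 of 5 ∆Ecad and 4 of 4 Ecad lists, Srm, spermidine synthase, likewise, and E2f2 in 0 of 5 and 3 of 4. Cbx8 and Srm also had p = 0.0476 for female ∆Ecad against the rest (0 of 3 and 5 of 6, exact). By sex no listed gene had a p under 0.05, and the smallest by Fisher's exact test was 0.167 for Prmt5. None of these passed the adjustment over all genes (Fisher's exact test, adjusted p = 0.503 by genotype and 0.337 for female ∆Ecad). The calls of the 4 locus genes were not tested. Cdkn2a was called in 2 of 3 female ∆Ecad lists and 4 of the 6 others.

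The genes most like Cdkn2a in promoter calls were Rnf135 (chr11:80183851-80199757) and Nes (chr3:87971078-87980451), which had the same call in 9 of 9 lists, followed by Dtnb, Ica1 and Plekhg3 with 8 of 9. The Pearson r of their percentile with that of Cdkn2a, over 9 lists with 0 for no peak, was 0.92, 0.88, 0.92, 0.82 and 0.80 in that order. These genes were selected for having the calls of Cdkn2a, and ties were ordered by this r, so high values follow from the selection. None is on chromosome 4, and the points share the list lengths. Mtap and Dmrta1 had the call of Cdkn2a in 6 of 9 lists, with r of -0.56 and -0.21.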

How the data were processed

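H3K27ac peaks of 9 mouse melanoma lines were used as deposited. The authors sequenced the libraries and aligned reads to GRCm38 (mm10), and the submitters' processing notes list Bowtie2 2.4.5, MACS2 2.2.7.1 and deepTools 3.5.1.0.0 without roles. The deposited columns are a score, a fold enrichment (a linear ratio), −log10 p-value, −log10 q-value and summit offset, and the authors' lowest −log10 q was above 5. Each deposited list is 1 line. The depth reached by each library is unknown, which input was the control is not given in the sources used here, and 4 input libraries were not analysed here. The p-values come from Fisher's exact test on 1 call per line and gene. They do not measure the spread of peak strength between lines.

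Peaks sharing at least 1 bp were merged over lists (elements). GENCODE M21 gave starts, and a promoter call needed a peak within 1 kb. Calls were compared by Fisher's exact test (scipy 1.17.1) with Benjamini-Hochberg adjustment over all tested genes, tested on simulated data. The text names the 4 locus genes, coding genes of the window with a promoter peak, fixed pathway and marker lists, and the 5 genes most like Cdkn2a. Ifna and Ifne genes, without a peak, were named after their values were seen. Members and lists were chosen with earlier results of these data known. Alternatives were other promoter windows, lists of equal length, peaks of at least 500 bp or −log10 q of at least 10, other limits for regions, and leaving out each line.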

Additional observations from a re-analysis of the deposited data

How the results depend on the processing

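The Cdkn2a, Cdkn2b and Dmrta1 promoters were called in the same number of lists with windows of 500 or 2500 bp, lists cut to the 20741 strongest peaks, and peaks of at least 500 bp. Mtap was called in 8 lists of equal length, since Ma_1039 lost it. The stretch without peaks grew to 338 kb in Ma_1007 and 307 kb in Ma_1062 in lists of equal length and was 322 kb in Ma_1069 in all settings. The missing run was 7 to 10 regions in Ma_1007, 3 to 5 in Ma_1062 and 4 to 7 in Ma_1069 when other lines were left out, with 3 in Ma_1062 and 4 in Ma_1069 without Ma_1039, Ma_1456, Ma_1057 or Ma_1064, and 0 in all 3 with regions called in at least 7 of the other 8 lists, because the elements at Cdkn2a were called in at most 6 lists. Elements called per line numbered 22 to 45, against 5 to 40 where peaks had to cover at least 0.5 of an element and 22 to 37 in lists of equal length. Genes with p under 0.05 numbered 141 to 293 by genotype and 59 to 139 by sex when a line was left out, below the full count for every line. For female ∆Ecad against the rest they numbered 566 to 1070, with falls of over 1.5 times without Ma_1007 (567), Ma_1181 (577), Ma_1014 (566), Ma_1039 (589) or Ma_1069 (582). Smaller groups allow fewer p-values under 0.05. No gene passed the adjustment in any setting. No paired analysis was possible because replicate numbers only name lines. Peak lists without depth cannot tell a weak mark from an absent one, nor either from absent DNA.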
